A study of Homo sapiens with 6 samples.

Results

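The proteins of the cytosolic ribosome are encoded by a large family of genes, and their transcripts were read in a human myeloma line after knockdown of either subunit of ribonucleotide reductase. Members were taken by name: probe sets whose platform annotation gives a single symbol made of RPL or RPS, a number and at most 1 closing letter A or X, together with RPLP0, RPLP1, RPLP2 and RPSA. The rule found 89 of 22277 probe sets, which stand for 51 of the 11963 genes with a single-symbol probe set. Of these genes, 20 encode proteins of the small subunit and 31 of the large subunit. No measured value entered the rule.

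NCI-H929 is an established plasma cell myeloma line. The 3 groups of 2 arrays differ in the siRNA that was electroporated: a non-targeting control (scramble), siRNA against RRM1 (siRRM1), or siRNA against RRM2 (siRRM2). All cells were of the same line and were harvested 24 h later, and no unelectroporated group was among the samples, so every group carries the effect of electroporation. RRM1 is the large and RRM2 the small subunit of ribonucleotide reductase, which makes the deoxyribonucleotides for DNA synthesis. The labels do not say whether the replicates were separate cultures, so p-values measure only the spread between these samples, which may be technical.

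A ribosome joins a small subunit, which decodes the message, to a large subunit, which forms the peptide bond, and cells keep the proteins of both in step. Vertebrate ribosomal protein mRNAs are known as TOP mRNAs because they begin with a C followed by a run of pyrimidines, the terminal oligopyrimidine tract. Through that tract the kinase mTORC1 and the RNA-binding protein LARP1 control mainly how well the mRNAs are translated and stored, which an array of total RNA does not read. Ribosomal proteins also touch the p53 pathway: free RPL5 and RPL11, held with 5S ribosomal RNA, can bind MDM2, the ligase that otherwise marks p53 for destruction. Plasma cells and myeloma cells rely on ribosomes to make secreted immunoglobulin.

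The starts of these genes show the feature that gives the mRNAs their name. RefSeq promoter entries (GRCh38.p14), which cover 250 bases before to 50 after each annotated start, matched 45 of the 51 genes, with 52 starts in all. RPL7, RPL8, RPL23A, RPL30, RPL37 and RPS15A had no entry. The run searched was a C at the first transcribed base followed by at least 4 bases that were C or T, on the transcribed strand only. It stood at 33 of the 52 starts (63.5%), against 1429 of all 35116 starts in the table (4.07%). Allowing the run to begin within 5 bases of the annotated start raised these shares to 82.7% and 21.1%. A core ETS-family motif, CCGGAAG on either strand anywhere in the 300 bases, was found in 40.4% of the members' windows and 10.3% of all windows. The motif and the run were counted separately, and on the transcribed strand the motif holds purines and cannot lie inside a run. A match is a description of letters and not of a bound site.

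Some of these starts are shown because the results below turn on the genes: each line gives 30 bases before and 20 bases from the annotated first base, 5′ to 3′ on the transcribed strand of GRCh38.p14, with the run in capitals. The first 6 carry a run at the first base. RPS28 and RPL10A do not, but in both a run begins within 5 bases after it. The last pair contrasts RPS27 with its paralog RPS27L.
RPL41 (chr12:56116603-56116652, plus strand): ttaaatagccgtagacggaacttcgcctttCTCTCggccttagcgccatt
RPL38 (chr17:74203648-74203697, plus strand): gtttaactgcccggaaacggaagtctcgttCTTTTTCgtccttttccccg
RPL37A (chr2:216498814-216498863, plus strand): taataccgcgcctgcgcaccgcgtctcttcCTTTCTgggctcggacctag
RPL27A (chr11:8682762-8682811, plus strand): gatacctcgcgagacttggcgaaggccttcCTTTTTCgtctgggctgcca
RPLP2 (chr11:809937-809986, plus strand): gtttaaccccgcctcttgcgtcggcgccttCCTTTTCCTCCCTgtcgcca
RPS10 (chr6:34426050-34426099, minus strand): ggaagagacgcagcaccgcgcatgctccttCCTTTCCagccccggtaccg
RPS28 (chr19:8321466-8321515, plus strand): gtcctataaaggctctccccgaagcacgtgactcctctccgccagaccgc
RPL10A (chr6:35468371-35468420, plus strand): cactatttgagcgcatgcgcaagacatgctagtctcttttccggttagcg
RPS27 (chr1:153990732-153990781, plus strand): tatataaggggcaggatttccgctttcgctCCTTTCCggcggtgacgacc
RPS27L (chr15:63157458-63157507, minus strand): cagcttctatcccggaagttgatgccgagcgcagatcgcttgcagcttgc

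**Figure D1:**
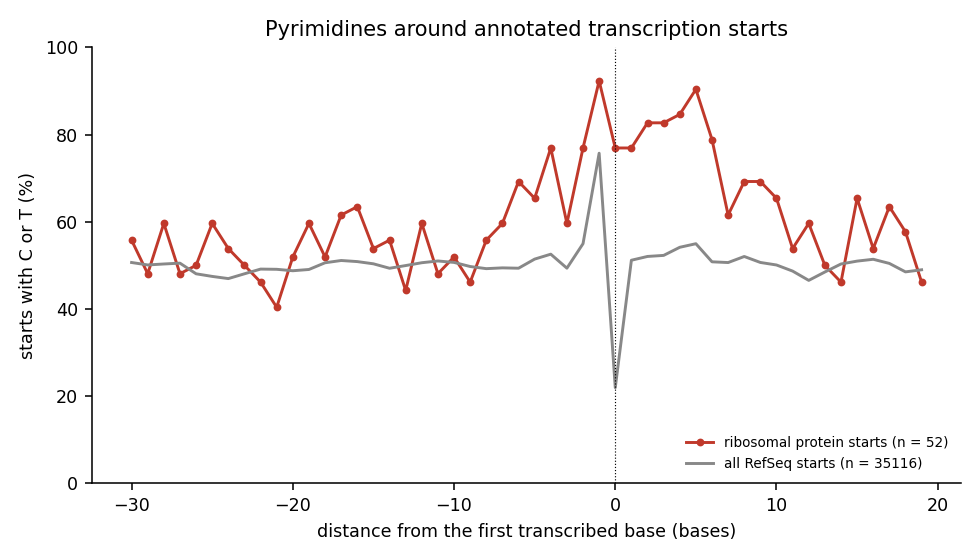
The share of annotated starts with C or T (y, percent) is plotted against the distance in bases from the first transcribed base (x) for the 52 ribosomal protein starts (red) and all 35116 RefSeq starts (grey). At the first base 76.92% of the ribosomal protein starts had a pyrimidine against 21.94% of all starts, and the share was 90.38% at a distance of 5 bases against 54.96%.

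The arrays carried their labels' knockdowns. RRM1 signal in siRRM1 replicates 1 and 2 was 22.4% and 11.7% of the scramble mean (log2 difference -2.63, limma adjusted p = 0.00154). RRM2 signal in siRRM2 was 21.2% and 39.6% (-1.79, limma adjusted p = 0.0214). The second probe set of each gene read 24.3% and 11.1% for RRM1 (201476_s_at) and 12.8% and 18.5% for RRM2 (209773_s_at). The RRM2 call was lost without scramble replicate 1 or 2 (limma adjusted p = 0.0739 and 0.0552). All 7 plasma cell markers were above the filter on low signal. In siRRM1 6 of them were lower than scramble without overlap, against 30.9% of all genes tested. Their median log2 difference was -0.221, against -0.0092 over all genes tested. Their log2 signals summed to 76.1 and 75.7 in scramble, 74.9 and 73.7 in siRRM1 and 76.8 and 75.9 in siRRM2. IRF4, a transcription factor of plasma cells, passed the test in siRRM1 (-0.626, limma adjusted p = 0.0449), but not without scramble replicate 1, siRRM1 replicate 2 or either siRRM2 array (0.197, 0.224 and 0.0506). Of the other cell types, 0 of 2 early B cell, 1 of 4 T cell, 1 of 4 myeloid, 2 of 4 epithelial and 1 of 4 stromal markers were above the filter. The 4 myeloid log2 signals summed to 18.1 and 18.4 in scramble, 19.5 and 20.4 in siRRM1 and 18.5 and 18.8 in siRRM2. Most of the rise in siRRM1 was in 1 called gene, CSF1R, at 5.56 and 5.84 in scramble and 6.73 and 7.68 in siRRM1. CD14, ITGAM and LYZ were below the filter, with means of 4.30, 5.14 and 3.11. Whether these marker differences have a part in the ribosomal protein results was not tested.

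Ribosomal protein probe sets lay at the bright end of every array. Their mean log2 signal over the 6 arrays had a median of 13.44, and 59 of the 89 were in the top 1% of all probe sets. RPL41, which encodes a very short basic peptide of the large subunit, gave the highest value on all 6 arrays, 14.39 and 14.42 in scramble, 14.41 and 14.41 in siRRM1 and 14.41 and 14.41 in siRRM2. On every array 42 members were within 1 log2 unit of the highest value, so these probe sets had little room to read higher. Brightness depends on the probes and is no measure of one transcript against another. All 51 genes passed the filter on low signal, as did 84 probe sets. The 5 that did not were RPS6 211690_at, RPS14 214245_at and 217298_at, RPL35A 215249_at and RPLP2 217670_at, with means of 3.52 to 5.00. RPL5, RPL13A and RPL23 occur here only on probe sets with several symbols, and RPL26, RPLP0, RPSA and RPS27A have no single-symbol entry, so these were not analysed here.

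Read by the brightest probe set of each gene, the ribosomal protein genes lay close to the scramble level in siRRM1. Of these probe sets 49 had a mean log2 signal of 12 or more, toward the top of the range. Dimmer probe sets of some genes differed more, as given below. The part of this choice of probe set in the small differences was not tested. With 1 probe set per gene, the brightest, 0 of 51 genes passed the test (limma, Benjamini-Hochberg adjusted p under 0.05), against 15.5% of the 7936 genes tested, and 3 had an unadjusted p under 0.05, against 32.6%. Calls were fewer among bright probe sets in general. Of all 512 probe sets with a mean of 12 or more, members included, 4.30% passed in the probe set fit. An unadjusted p under 0.05 was found in 14.1% of them. The log2 difference was below 0 in 42 of the 51 genes, against 51.7% of all genes tested. In 44 genes it was within 0.1 of 0. The median was -0.038, against -0.0092 over all genes tested, but it turned to 0.0025 when each array was centred on its 75th percentile. Such centring moves all genes by the same amount, so the gap between the members and all genes stayed as it was. Arrays of the 2 groups did not overlap in 23 genes that were lower in siRRM1 and 2 that were higher, against 30.9% and 28.4% of all genes. The typical 95% interval reached 0.197 to either side of a gene's difference, so changes under about that size could not be told from 0. That width uses a spread partly shared across genes. The members' own residual SD had a median of 0.0316 against 0.103 over all genes.

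Small subunit genes had a median log2 difference of -0.047, with 17 of 20 below 0. RPS6, the substrate of the S6 kinases, read 13.97 and 14.01 in scramble, 13.92 and 13.91 in siRRM1 and 13.94 and 13.90 in siRRM2. Both knockdowns lay below both controls, by -0.076 in siRRM1 (95% interval -0.270 to 0.119, limma adjusted p = 0.580). RPS3, which lies at the mRNA entry channel and also acts in DNA repair, read 13.21 and 13.34 in scramble against 13.19 and 13.19 in siRRM1. RPS18, a common reference transcript, differed by -0.064, RPS4X by -0.021 and the anaemia gene RPS19 by 0.011. None of these differences passed the test, and each was under 0.1 in size.

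Large subunit genes had a median of -0.034, with 25 of 31 below 0, and they held the extremes on both sides. RPL8, at the core of the large subunit, read 12.62 and 12.80 in scramble, 12.51 and 12.43 in siRRM1 and 12.44 and 12.52 in siRRM2. Its difference in siRRM1 was -0.240 (95% interval -0.470 to -0.010, limma adjusted p = 0.140), the lowest of the 51, and it ran from -0.330 without scramble replicate 1 to -0.150 without scramble replicate 2. RPL10A (-0.139), RPL36 (-0.127), RPL35A (-0.104) and RPL6 (-0.101) followed, and in each the siRRM1 arrays lay below the scramble arrays without passing the test.

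At the other end stood RPL27A and RPLP2, the only member genes whose brightest probe set was dim, with a mean under a log2 signal of 12. RPL27A (212044_s_at) read 8.74 and 9.51 in scramble, 9.80 and 10.07 in siRRM1 and 9.59 and 9.82 in siRRM2. The groups did not overlap, but the scramble arrays were 0.77 apart, close to the difference of 0.809 ± 0.233 (SE, 2 arrays per group, limma adjusted p = 0.0545). RPLP2, an acidic protein of the stalk that recruits translation factors, read 6.60 and 7.25 in scramble, 7.57 and 7.62 in siRRM1 and 7.05 and 7.28 in siRRM2. Its difference was 0.672 ± 0.197 (SE, limma adjusted p = 0.0576). With 1 array left out the RPL27A difference ran from 0.423 (without scramble replicate 1) to 1.19 (without scramble replicate 2) and that of RPLP2 from 0.342 to 1.00 (the same arrays). Both passed without scramble replicate 2 (adjusted p = 0.00925 for each). With replicate number as a block both passed (adjusted p = 0.00432 and 0.0104). RPLP1, the partner of RPLP2 in the stalk, differed by -0.022 on a bright probe set. RPL39 (0.051), RPS28 (0.026) and RPL11 (0.024) were the next highest, each with overlapping groups.

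**Figure D2:**
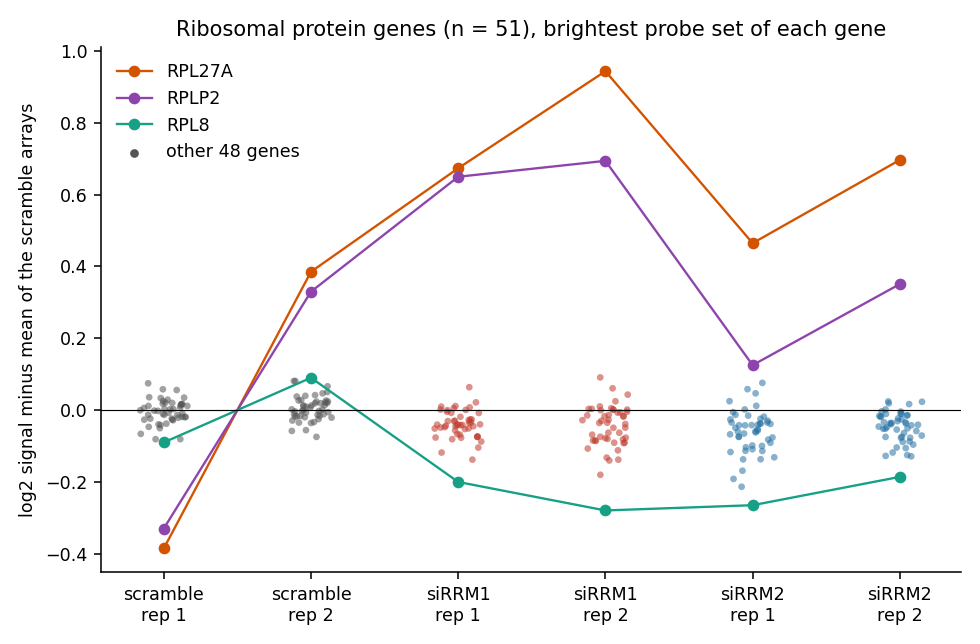
Each point is the log2 signal of 1 ribosomal protein gene on 1 array minus the mean of the 2 scramble arrays (y), for the 6 arrays (x), with RPL27A, RPLP2 and RPL8 joined by lines that carry no order. The other 48 genes lie close to 0 on every array, while RPL27A and RPLP2 are apart in the scramble replicates as well as in the knockdowns.

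In siRRM2, too, 0 of 51 genes passed the test, against 2.52% of all genes, and 1 had an unadjusted p under 0.05, against 20.4%. The median was -0.050, against -0.0033 over all genes. The difference was below 0 in 42 genes, against 50.7% of all genes, and within 0.1 of 0 in 40. Groups did not overlap in 31 genes that were lower in siRRM2 and 2 that were higher, against 27.7% and 27.1% of all genes. The median stayed below 0 under the 3 other scalings tried, at values from -0.087 to -0.026. Small subunit genes had 18 of 20 below 0 (median -0.057) and large subunit genes 24 of 31 (median -0.049).

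The lowest differences in siRRM2 were in RPL8 (-0.225, 95% interval -0.455 to 0.0044), RPS3 (-0.171), RPL10A (-0.148), RPL36 (-0.116) and RPL34 (-0.107). RPS3 read 13.06 and 13.15 in siRRM2, below both scramble arrays. RPL27A differed by 0.581 (95% interval 0.039 to 1.12, limma adjusted p = 0.216) and passed with the replicate block (adjusted p = 0.0387). RPLP2 followed at 0.238, with overlapping groups, and then RPL39 (0.028), RPL11 (0.024) and RPS28 (0.014). Both knockdowns were compared with the same 2 scramble arrays, so the 2 sets of differences are not independent.

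Between siRRM1 and siRRM2, 0 of 51 genes passed the test, against 0.164% of all genes, and 0 had an unadjusted p under 0.05, against 10.0%. The median was 0.0098, with 16 genes below 0, against 52.3% of all genes. Groups did not overlap in 9 genes that were higher in siRRM1 and 3 that were lower, against 18.9% and 21.8%. RPLP2 differed most, by 0.434 (95% interval -0.025 to 0.893, limma adjusted p = 0.520). It was followed by RPL27A (0.228), RPS3 (0.084), RPL14 (0.084) and RPL12 (0.071), and at the low end stood RPL6 (-0.056), RPL35 (-0.040), RPS7 (-0.038), RPL37 (-0.036) and RPLP1 (-0.026).

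Of the ribosomal proteins tied to MDM2, RPL11, RPL6, RPS7 and RPS14 were measured on single-symbol probe sets, and 0 of 4 passed in any comparison, against 15.5%, 2.52% and 0.164% of all genes, shares at which a list this short may hold no call. RPL11 read 13.15 and 13.11 in scramble, 13.19 and 13.12 in siRRM1 and 13.19 and 13.12 in siRRM2, differences of 0.024 in both knockdowns with overlapping arrays. RPS7, RPS14 and RPL6 were lower in both knockdowns without overlap, by -0.098, -0.063 and -0.101 in siRRM1 and by -0.059, -0.067 and -0.045 in siRRM2, against 30.9% and 27.7% of all genes lower without overlap. A second bright probe set of RPS7, 200082_s_at, differed more, by -0.182 in siRRM1 and -0.196 in siRRM2. It did not pass in either knockdown, but with a variance trend it passed in siRRM1. On the other side of that contact, MDM2 rose by 1.23 in siRRM1 (limma adjusted p = 0.0101) and differed by 0.875 in siRRM2 (0.0750). The p53 target CDKN1A rose by 2.83 and 2.09 (limma adjusted p = 1.80e-04 and 0.00306). RRS1, a nucleolar factor that helps assemble the 5S particle, and HEATR3, which carries RPL5 into the nucleus, fell in siRRM1 by 0.467 and 0.387 on the log2 scale (limma adjusted p = 0.0146 and 0.0373). The HEATR3 call was lost when any 1 of the 6 arrays was left out (adjusted p from 0.0523 to 0.181), and the RRS1 call without either scramble array or siRRM1 replicate 2 (0.0711, 0.0523 and 0.0820). Members mutated in Diamond-Blackfan anaemia, a failure of red cell production, gave 0 of 6 calls in each comparison, against the same shares of all genes.

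Read probe set by probe set, the calls lay among the dim members. A line at a mean log2 signal of 12, chosen after seeing the values, splits the 84 tested members into 64 bright and 20 dim, and the members nearest to it had means of 12.55 (RPL8) and 11.82 (RPS9 214317_x_at). None of the 64 bright members passed in any comparison, and in siRRM1 their median was -0.044, with 32 lower and 1 higher without overlap, against 31.3% and 26.1% of all probe sets tested. Among all 512 probe sets as bright, 22 passed in siRRM1 (4.30%) and 3 in siRRM2 (0.586%), and 199 and 180 were lower without overlap. In siRRM2 the bright members had 41 lower and 1 higher without overlap, against 28.8% and 25.9%. Over all 84 members, 2 passed in siRRM1, against 12.1% of the 13366 probe sets tested, 0 in siRRM2, against 1.32%, and 0 between the knockdowns, against 0.0374%. Unadjusted p-values under 0.05 numbered 11, 2 and 3, against 29.9%, 18.8% and 8.63% of all probe sets tested.

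**Figure D3:**
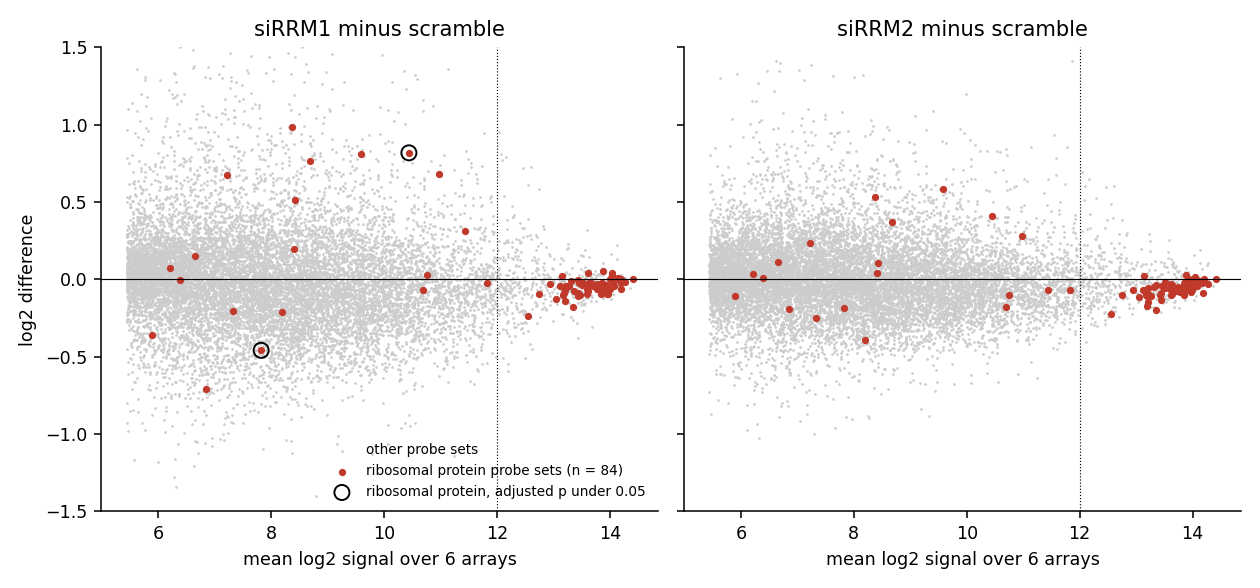
The log2 difference from scramble (y) is plotted against the mean log2 signal over the 6 arrays (x) for siRRM1 (left) and siRRM2 (right), with the 84 ribosomal protein probe sets in red, all other tested probe sets in grey, a dotted line at 12 and circles around the members that passed the test. Bright members form a tight cloud just below 0, and the 20 dim members scatter from -0.71 to 0.99 in siRRM1. Grey points beyond 1.5 in either direction are outside the axis.

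Both called members were dim, and the brightest probe set of each gene stayed near 0. RPL38, a small large-subunit protein, had 221943_x_at at 9.76 and 10.31 in scramble, 10.63 and 11.07 in siRRM1 and 10.37 and 10.52 in siRRM2. It rose by 0.818 ± 0.207 in siRRM1 (SE, 1.76-fold, limma adjusted p = 0.0453), and both siRRM1 arrays lay above both controls. The dim 202028_s_at differed the same way, by 0.679 (adjusted p = 0.0580), while the bright 202029_x_at read 13.32 and 13.34 in scramble and 13.32 and 13.32 in siRRM1, a difference of -0.0092. RPS28, a small-subunit protein at the mRNA exit, had 208903_at at 8.08 and 8.00 in scramble, 7.51 and 7.65 in siRRM1 and 7.79 and 7.92 in siRRM2. It fell by 0.459 in siRRM1 (SE 0.101, limma adjusted p = 0.0299), without overlap. The dim 208902_s_at differed by -0.359 (adjusted p = 0.0553), and the bright 208904_s_at by 0.026.

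These 2 calls were fragile. The RPL38 call was lost without scramble replicate 1 (difference 0.544, limma adjusted p = 0.190) or siRRM1 replicate 2 (0.597, 0.203), and without either siRRM2 array (0.0765), which changes only the estimate of spread. The RPS28 call was lost when any 1 of the 6 arrays was left out, at adjusted p-values from 0.0588 to 0.144, and its difference stayed between -0.531 and -0.388. With replicate number as a block, by contrast, 10 members passed in siRRM1, against 20.4% of all probe sets, and 1 in siRRM2, against 5.27%. All of them were dim. The 7 higher in siRRM1 were RPL27A, RPLP2, both dim RPL38 probe sets, RPL37A 214041_x_at, RPS10 214001_x_at and RPS21 214097_at, and the 3 lower were RPL37A 213459_at and the dim RPS28 pair.

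RPL37A showed the widest disagreement within a gene. This zinc-binding protein of the large subunit had the bright 201429_s_at at 14.17 and 14.21 in scramble, 14.20 and 14.19 in siRRM1 and 14.16 and 14.22 in siRRM2, a difference of 0.00070 in siRRM1. The dim 214041_x_at read 7.48 and 8.25, then 8.64 and 9.07, then 8.19 and 8.60, a difference of 0.988 in siRRM1 (limma adjusted p = 0.0564) and 0.531 in siRRM2 (0.345, or 0.0381 with the block). The other dim probe set, 213459_at, went the opposite way, from 7.42 and 6.88 in scramble to 6.72 and 6.16 in siRRM1, a difference of -0.708 (adjusted p = 0.0940), with 6.80 and 7.11 in siRRM2. From the highest to the lowest probe set the RPL37A differences spanned 1.70 in siRRM1 and 0.725 in siRRM2.

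RPS10, at the mRNA entry side of the small subunit and an anaemia gene, had 3 bright probe sets that differed in siRRM1 by -0.021, -0.095 and -0.094. Its dim 214001_x_at read 8.07 and 8.53 in scramble, 8.78 and 9.36 in siRRM1 and 8.61 and 8.75 in siRRM2, a difference of 0.766 (limma adjusted p = 0.0597). The 4 probe sets spanned 0.861 in siRRM1. Spans were 0.827 in RPL38, 0.610 in RPL14 and 0.486 in RPS28, and they were small where every probe set of the gene was bright, as in RPS6, whose 3 tested probe sets spanned 0.038. The 5 probe sets of RPL22, 3 bright and 2 dim, spanned 0.102, so not every dim probe set departed from its bright counterparts.

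**Figure D4:**
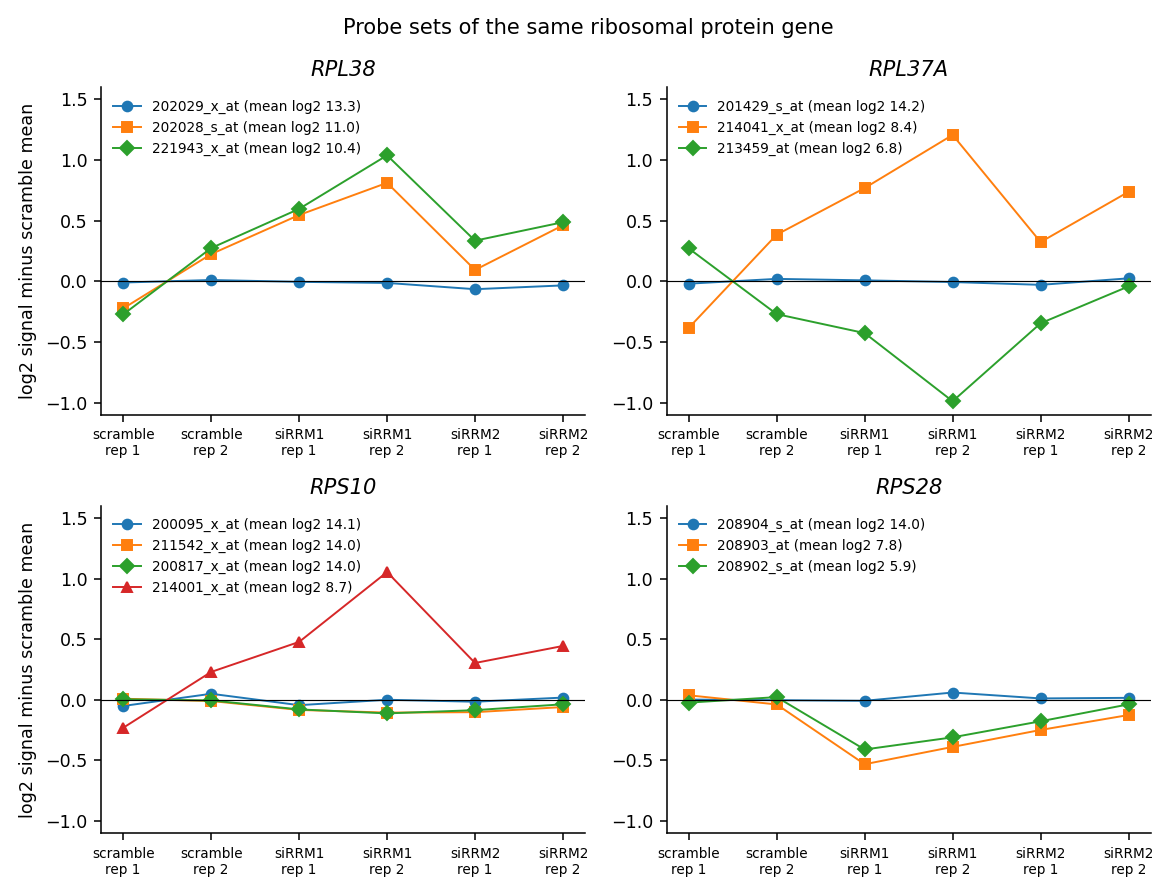
For RPL38, RPL37A, RPS10 and RPS28, the log2 signal minus the scramble mean (y) of each tested probe set is shown on the 6 arrays (x), with the probe set's mean log2 signal in the legend. Lines join values of a probe set and carry no order. Bright probe sets stay near 0 on every array, while dim ones lie farther from 0, up in RPL38 and RPS10, down in RPS28 and both ways in RPL37A.

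The dim risers shared an order of arrays. In 7 dim probe sets the siRRM1 difference was above 0.5: RPLP2 200908_s_at, RPL38 202028_s_at and 221943_x_at, RPL27A 212044_s_at, RPS10 214001_x_at, RPL37A 214041_x_at and RPL14 219138_at. In all 7, scramble replicate 1 was the lowest and siRRM1 replicate 2 the highest of the 6 arrays, and replicate 2 read above replicate 1 in every group. They were picked by their siRRM1 difference, which favours such an order, so the count is a description. Over all 20 dim members 9 had that order, those 7 among them, against 9.25% of all probe sets tested, and 0 of the 64 bright members did. That count carries the same choice, and the line between dim and bright was set after seeing the values.

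The terminal run was also set beside the values of the members. The 33 genes with the run at an annotated start, which include RPL27A and RPLP2, had a median log2 difference of -0.027 in siRRM1 and -0.058 in siRRM2. The 12 genes with an entry but no run at the annotated first base had medians of -0.045 and -0.056. Such genes may have the run a few bases away, as printed above for RPS28 and RPL10A. RPL10A, which lacks the run at the annotated first base, and RPL36, which has it there, both stood among the 5 lowest in each knockdown. As 0 genes of either set passed the test, the sets are described only.

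Of 5 tested paralogs outside the rule, 1 passed in siRRM1 (RPS27L), against 15.5% of all genes. At that share a list this short may hold 1 call, so the count says nothing of paralogs as a class. RPS27L (218007_s_at), a close relative of RPS27 and a known p53 target, read 12.33 and 12.21 in scramble, 12.86 and 12.90 in siRRM1 and 12.58 and 12.43 in siRRM2. It rose by 0.610 ± 0.096 in siRRM1 (SE, 1.53-fold, limma adjusted p = 0.00809), with both arrays above both controls. Without siRRM1 replicate 2 the call was lost (adjusted p = 0.0536) at a difference of 0.589. In siRRM2 the difference was 0.238 (95% interval 0.013 to 0.462, limma adjusted p = 0.222), and between the knockdowns it was 0.373 (adjusted p = 0.246). RPS27 itself read 14.20 and 14.16 in scramble, 14.15 and 14.20 in siRRM1 and 14.16 and 14.15 in siRRM2, near the top of the range, with differences of -0.0032 and -0.025. As printed above, RPS27 starts with the pyrimidine run and RPS27L does not. RPL10L, RPL26L1, RPL36AL and RPL39L did not pass, with siRRM1 differences of -0.065, -0.033, -0.199 and 0.286.

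**Figure D5:**
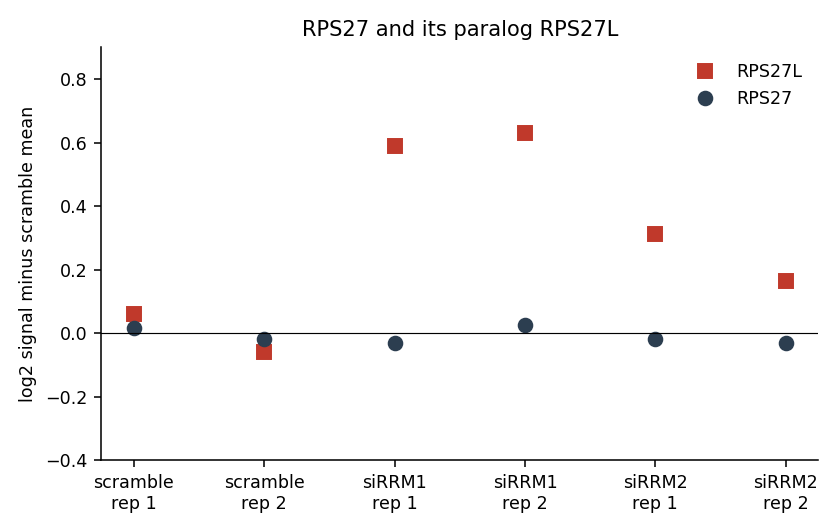
The log2 signal minus the scramble mean (y) is shown for RPS27L (squares) and RPS27 (circles) on each of the 6 arrays (x). RPS27L lies 0.59 and 0.63 above the scramble mean in siRRM1 and 0.31 and 0.16 above it in siRRM2, and RPS27 stays within 0.031 of it on every array.

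Other genes of the pathway were taken as lists. Of 16 other TOP mRNAs, which encode elongation and initiation factors and the like, 0 passed in any comparison, against 15.5%, 2.52% and 0.164% of all genes, and their medians were -0.056 in siRRM1 and -0.074 in siRRM2. The siRRM1 count became 1 with a variance trend and with the mean of all probe sets of a gene. HNRNPA1 had the smallest p among them in siRRM1, at a difference of -0.264 (limma adjusted p = 0.118), and the elongation factor EEF1A1 differed by -0.058. Of 15 genes of mTORC1 and LARP1 control, SESN1, a p53 target that restrains mTORC1, rose by 1.33 in siRRM1 (limma adjusted p = 3.26e-04) and by 0.844 in siRRM2 (0.00684). It read 6.88 and 6.86 in scramble, 8.20 and 8.21 in siRRM1 and 7.71 and 7.72 in siRRM2, and the siRRM2 call was lost without siRRM2 replicate 2 (adjusted p = 0.0546). The other 14 did not pass in either knockdown, and LARP1 itself differed by -0.252 in siRRM1 (adjusted p = 0.142). EIF4G1 and EIF4E were nearer to the threshold in siRRM1, at -0.285 and -0.304 (limma adjusted p = 0.0616 and 0.0649). The number of genes of this list called in siRRM1 changed in 6 of 16 alternative settings. FAU, which encodes a small-subunit protein as a ubiquitin-like fusion, differed by -0.074 and -0.025.

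The proteins of the mitochondrial ribosome are also nuclear-encoded, but their mRNAs mostly lack the run (4 of 56 starts had it). Calls among these genes in siRRM1 were near the share over all genes. Of 50 genes tested in siRRM1, 6 fell and 1 rose (14% called), against 15.5% called over all genes. Their median was -0.132, against -0.0092 over all genes tested. MRPS28 fell most, from 10.22 and 10.34 in scramble to 9.83 and 9.64 in siRRM1, by 0.548 on the log2 scale (limma adjusted p = 0.0138), and MRPL48 fell by 0.493 (0.0266). MRPL19, MRPL13, MRPL3 and MRPS18B fell too, and MRPS11 rose by 0.424 (0.0292). In siRRM2 0 of 50 passed, against 2.52% of all genes, with a median of -0.078, against -0.0033 over all genes tested. That siRRM2 count changed in 1 of 16 alternative settings. The siRRM1 count rested on single arrays: it was 0 without siRRM1 replicate 2, 1 without scramble replicate 1, 2 without scramble replicate 2, 3 without either siRRM2 array and 10 without siRRM1 replicate 1. No test set the mitochondrial genes against the cytosolic ones.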

How the data were processed

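Total RNA from 6 NCI-H929 samples (2 per group) was labelled with biotin and hybridized to arrays, per the labels' protocols. The authors deposited log2 signals of 22277 probe sets. The labels and file header do not state how probes were summarised or arrays normalized. The log base was read from the values. Array medians lay between 6.11 and 6.16, and no further scaling was applied. The number of arrays limits the precision.

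Symbols came from the platform annotation (19070 probe sets with 1 symbol, 1043 with several, 2164 with none), and 19058 matched RefSeq. A gene was read by its single-symbol probe set of highest mean. Probe sets with a mean at or above the 40th percentile (log2 5.44) were tested, which left 7936 genes and 13366 probe sets. Models were fitted with limma 3.58.1 (lmFit and eBayes, R 4.3.3) over all 6 arrays with 3 residual degrees of freedom, two-sided, and p-values were adjusted by Benjamini-Hochberg over the whole table at 0.05. Genes and probe sets were fitted separately, so adjusted p-values differ slightly between them. Python 3.11.15 was used for promoter searches and figures. The scripts were tested on simulated data.

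Replicate numbers are shared across groups, with no statement of what they mark. Deviations from the group mean correlated between same-numbered arrays at r = 0.382, 0.363 and 0.210 for the 3 pairs of groups across 7936 genes, and at 0.430, 0.801 and 0.330 across the 51 members. The block is therefore printed where it changes a call of a member. For genes of the related lists it is not printed.

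Named genes were RRM1 and RRM2, called members, the 5 highest and 5 lowest member genes per contrast, members with set roles, the genes whose probe sets disagreed most, and paralogs and list members. Members and lists were chosen with earlier results of these data known. Alternatives were filters, scalings, the block, a variance trend, 4 arrays, other gene summaries and leaving out each array. A further 57 probe sets with several symbols, 1 of them ribosomal, were not named: 50 were tested, 0 passed in any contrast, and 2, 1 and 1 had an unadjusted limma p under 0.05. The 3′ and 5′ control probe sets of the arrays are not reported here.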

Additional observations from a re-analysis of the deposited data

How the results depend on the processing

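The 0 of 51 genes called in siRRM1 became 2 with a filter at the 60th percentile, 1 with arrays centred on their 75th percentile, 2 with the replicate block, 3 with a variance trend (RPL27A and RPLP2 higher, RPL8 lower), 1 with the mean of all probe sets of a gene and 1 with plain _at probe sets, and ranged from 0 to 2 with 1 array left out. The 2 member probe sets called in siRRM1 became 1 with no filter, 5 at the 60th percentile, 4 centred on the 75th percentile, 3 centred on the median and 3 after quantile normalization (RPS28 208902_s_at added in both), 10 with the replicate block, 7 with the trend, 0 with only the 4 arrays compared and 1 with plain _at probe sets, and ranged from 0 to 4 with 1 array left out. They were 0 without scramble replicate 1, siRRM1 replicate 2 or either siRRM2 array, and 4 without scramble replicate 2. With the trend, the member probe sets called in siRRM1 included the bright RPS7 200082_s_at, which was lower, so not every such call was dim. In siRRM2 the counts of genes and of probe sets were 0, and both became 1 with the replicate block, which changed no call between the knockdowns. The median of the 51 genes in siRRM1 was -0.0813 with arrays centred on their median, 0.00254 on their 75th percentile and -0.0134 after quantile normalization. Either centring moves the median of all genes by the same amount as that of the members. In siRRM2 it was -0.0872 centred on the median and -0.0261 after quantile normalization, and between the knockdowns it was 0.0362 centred on the 75th percentile. The replicate block raised the calls over all genes from 1234 to 1904 in siRRM1, from 200 to 622 in siRRM2 and from 13 to 153 between the knockdowns. The deposited arrays have 2 samples per group, which limits every interval, and the brightest probe sets had little room to read higher.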
